A study of Homo sapiens with 8 samples.

Results

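ABC drug efflux transporters are membrane pumps that use ATP to move drugs, lipids and conjugated metabolites out of cells, and 9 of their genes were followed here: ABCB1, ABCB4, ABCC1, ABCC2, ABCC3, ABCC4, ABCC5, ABCG1 and ABCG2. They were taken as a fixed list, out of 20037 protein-coding genes. Every region of the RBBP4 and P300 tables that overlapped the RefSeq GRCh38 span of a member, extended by 3000 bp on both sides, was counted as a member region. This gave 8 of 35154 listed RBBP4 regions and 8 of 20496 listed P300 regions. The 9 gene windows together covered 1314 kb.

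The chromatin came from the established human line NCI-H69, grown from small cell lung cancer, harvested 48 h after transfection with either of 2 siRNA reagents. The knockdown arm received siRNA against CSNK2B, which encodes the regulatory subunit of the kinase CK2, and the control arm received non-targeting siRNA. Both arms were cultured and crosslinked alike, with 1% formaldehyde for 10 min, and were immunoprecipitated for RBBP4 or for P300 with 1 library per antibody and arm. The series held 8 libraries, of which the 4 immunoprecipitated ones were used and the 4 input ones were not. With 1 library per arm no difference has a replicate check and none was tested. Each antibody carried its own batch label, so values of the 2 antibodies are set side by side and no difference between them was computed. RBBP4 is a histone-binding subunit shared by deacetylase, Polycomb and chromatin assembly complexes, and P300 is the acetyltransferase encoded by EP300.

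Resistance to chemotherapy has long been studied through these pumps, and the multidrug resistance protein gene ABCC1 was cloned from a doxorubicin-selected derivative of NCI-H69. ABCB1 encodes P-glycoprotein, which exports hydrophobic drugs such as etoposide, vincristine and doxorubicin. The ABCC members export organic anions, glutathione conjugates and nucleotide analogues, and ABCG2 exports topotecan and mitoxantrone. ABCB4 and ABCG1 are chiefly lipid exporters, of phosphatidylcholine into bile and of cholesterol to lipoproteins.

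Each deposited table gave, per region, the read density of the knockdown and control libraries as RPKM, reads per kb of region and per 1e6 reads. All regions listed had an unadjusted p-value below 0.05 in the authors' deposited table, so a gene without a listed region is not shown to lack binding or change. Each region name starts with the arm of its peak call. That arm was the higher one at 35151 of 35154 RBBP4 and 20496 of 20496 P300 regions, so a region chosen on 1 arm favours a difference in that arm's direction. The arm of each column was taken from its name (sample for knockdown, control for non-targeting), and for RBBP4 from the initials of these words. If the names were exchanged, each direction below would be the opposite. Reads in all tested regions were inferred, without a check, from the step of the RPKM values as 1207945 for RBBP4 knockdown, 833181 for RBBP4 control, 946392 for P300 knockdown and 1092789 for P300 control. Folds below are ratios of reads scaled to these totals, with 95% exact binomial intervals for counting error only, and 3 reads stand in for a library at 0. Log2 ratios are of RPKM plus 1, knockdown over control, which understates the ratios of sparse regions with reads in both libraries. Where a library is at 0 this ratio can exceed the fold. At the P300 region of ABCC4 it is 5.36, against a log2 fold of 1.94 with 3 reads standing in. A second scale, called whole libraries below, was inferred by fitting an offset to the authors' deposited log2 fold changes. The offset was taken as the ratio of library sizes, without a check. The fit missed those values by up to 0.079 for P300. The log2 fold scaled to the totals above minus that on the inferred scale is -0.58 for RBBP4 and 0.44 for P300 at every region. No member region changes direction between the scales.

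The RefSeq starts nearest to the member RBBP4 regions are shown here for ABCB1, ABCC4 and ABCC5, the members with both a listed RBBP4 region and a start given. Only the ABCC4 sequence overlaps such a region. The nearest RBBP4 region lies 1087 bp from the far ABCB1 start, 4480 bp from the near one and 4652 bp from the ABCC5 start. Each sequence runs 5′ to 3′ on the minus strand of GRCh38.p14, from 250 bases before the start to 50 after it. In the ABCB1 and ABCC5 sequences capitals mark the motifs searched on both strands, which were the GC box GGGCGG, the CCAAT box CCAAT, the TATA box TATAAA and the E-box CACGTG. None of the 4 motifs occurred in the ABCC4 sequence, where capitals mark the 11 bases that lie inside the RBBP4 region.
ABCB1 far start, chr7:87713246-87713545: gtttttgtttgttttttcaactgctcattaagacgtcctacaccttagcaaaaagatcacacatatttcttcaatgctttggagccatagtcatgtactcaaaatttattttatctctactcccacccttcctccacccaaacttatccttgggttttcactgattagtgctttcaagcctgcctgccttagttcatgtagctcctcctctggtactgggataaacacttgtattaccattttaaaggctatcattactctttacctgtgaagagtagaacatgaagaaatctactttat
ABCB1 near start, chr7:87600835-87601134: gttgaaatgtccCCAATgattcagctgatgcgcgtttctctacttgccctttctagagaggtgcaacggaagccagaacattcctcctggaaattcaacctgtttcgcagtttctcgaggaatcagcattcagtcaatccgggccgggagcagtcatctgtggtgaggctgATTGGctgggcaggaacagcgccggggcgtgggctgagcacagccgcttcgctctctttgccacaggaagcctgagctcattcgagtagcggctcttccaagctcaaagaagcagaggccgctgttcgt
ABCC4 start, chr13:95301402-95301701: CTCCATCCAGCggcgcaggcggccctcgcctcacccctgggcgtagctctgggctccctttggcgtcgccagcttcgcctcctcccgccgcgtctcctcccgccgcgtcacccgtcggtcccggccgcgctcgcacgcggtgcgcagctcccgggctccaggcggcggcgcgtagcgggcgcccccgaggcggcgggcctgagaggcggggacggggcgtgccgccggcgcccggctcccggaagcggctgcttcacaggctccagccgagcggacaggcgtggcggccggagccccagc
ABCC5 start, chr3:184017835-184018134: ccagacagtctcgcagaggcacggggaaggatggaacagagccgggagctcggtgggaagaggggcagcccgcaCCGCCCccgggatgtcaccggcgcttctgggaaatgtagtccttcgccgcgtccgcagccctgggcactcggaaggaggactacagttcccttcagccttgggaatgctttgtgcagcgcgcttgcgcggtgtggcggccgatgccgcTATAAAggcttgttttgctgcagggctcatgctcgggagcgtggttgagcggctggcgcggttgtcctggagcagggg
The ABCB1 starts lie 112411 bp apart and differ in base composition. The far one has 37.7% G or C and 1 CpG, and the near one has 55.3% and 16 CpG. The ABCC4 start has 79.7% G or C and 47 CpG, and the ABCC5 start has 65.7% and 26 CpG, against medians of 58.7% and 14 CpG over 35116 RefSeq promoters of the same length. The near ABCB1 start holds 2 CCAAT boxes, which 34.6% of those promoters hold at least once. The ABCC5 start holds 1 GC box and 1 TATA box, held by 45.0% and 11.5% of promoters. The E-box, held by 7.26%, was found in none of the 4 sequences, and no motif match here is evidence of a bound factor.

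RBBP4 regions were listed at 5 of the 9 members. All 4 regions at ABCB1 and the 1 region at its neighbour ABCB4 were lower after knockdown, and the 1 region each at ABCC3, ABCC4 and ABCC5 was higher. By the ratio of RPKM plus 1, 3 of 8 member regions were at least 2-fold higher, where 64.9% of all listed RBBP4 regions were. At least 2-fold lower were 5 of 8, where 31.2% of all listed regions were. The members' median log2 ratio was -2.40, against 1.49 over all listed regions. Of the 5 lower regions 4 belong to ABCB1, and regions of 1 gene share a locus and are not replicates.

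The deepest RBBP4 region of ABCB1, the P-glycoprotein gene, lies at chromosome 7, 87595465 to 87596404. Its density was 2.64 RPKM after knockdown, against 26.8 RPKM in the control. The recovered counts were 3 reads against 21, a 10.1-fold lower density (3.03 to 53.1), with 0.00571 as its adjusted p in the authors' deposited table. No other region of ABCB1 or ABCB4 in either table was below 0.05 by that measure, a criterion that 8.94% of listed RBBP4 regions met in the lower direction.
This region lies inside the gene, 4480 bp downstream of the near start shown above. A second region just downstream of it, at 87594746 to 87595041, had 2.80 RPKM after knockdown against 36.5 RPKM in the control, or 1 read against 9 (13.0-fold lower, 1.81 to 572). Both had 1 to 3 reads after knockdown.
The third lies between the starts, at 87616903 to 87617428, with 6.30 RPKM after knockdown against 31.9 RPKM in the control, or 4 reads against 14 (5.07-fold lower, 1.59 to 21.2). The last lies 1087 bp inside the far start, at 87711788 to 87712208, where RUNDC3B, another protein-coding gene, overlaps ABCB1. It had 1.97 RPKM after knockdown against 28.5 RPKM in the control, or 1 read against 10 (14.5-fold lower, 2.06 to 629).
In the authors' deposited table the adjusted p-values of these 3 regions were 0.0890, 0.121 and 0.0620. No interval for a single ABCB1 region included equal density, although counts of 1 read leave the size of each fold loosely bounded. All 4 were called as peaks in the control arm and listed at an unadjusted p below 0.05 in the authors' deposited table, a choice that favours lower densities after knockdown and intervals without equal density.

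**Figure D1:**
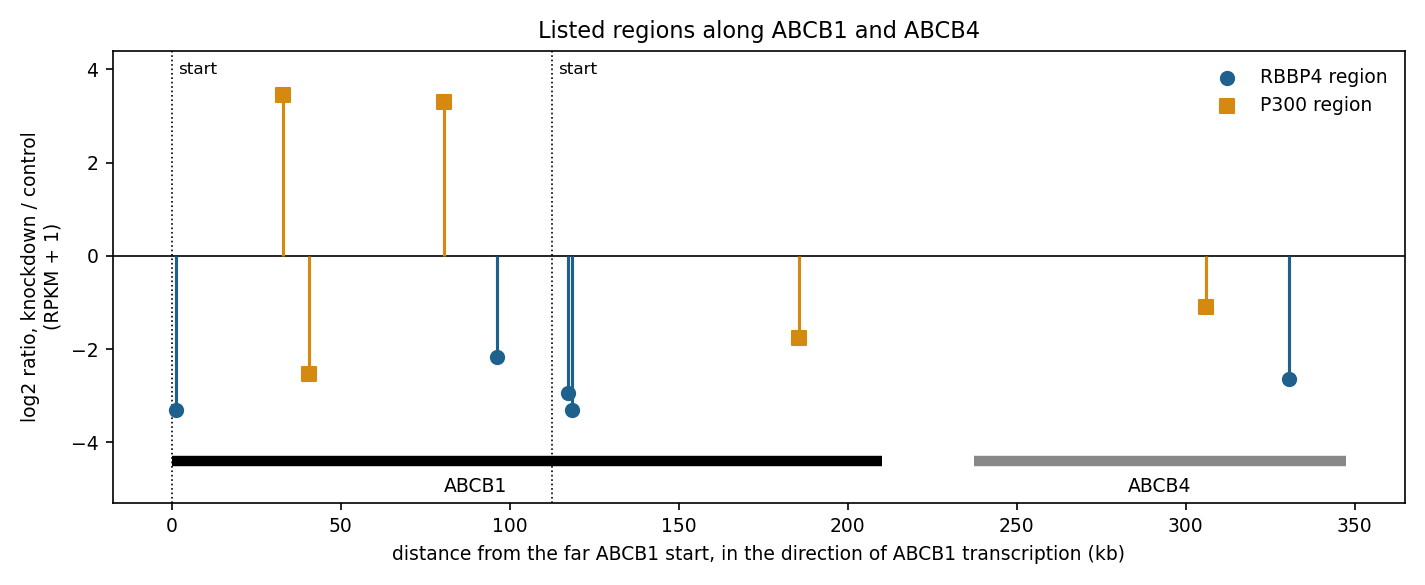
Log2 ratio of RPKM plus 1, knockdown over control, at each listed region of ABCB1 and ABCB4, against distance in kb from the far ABCB1 start in the direction of transcription; dotted lines mark the 2 annotated ABCB1 starts and bars the gene spans. RBBP4 regions (circles) lie below 0 throughout, and P300 regions (squares) lie on both sides.

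Few genes had several RBBP4 regions that were all lower. Of 1418 protein-coding genes with at least 4 listed RBBP4 regions, 13 had only lower ones (0.917%), ABCB1 among them, while 518 had only higher ones and 887 had both. This count was chosen after the ABCB1 values were seen. Among the other 12 were NTRK3, a neurotrophin receptor gene, and GRM7, a glutamate receptor gene. Within 500 kb on either side of the ABCB1 window, 7 listed RBBP4 regions were higher and 9 lower, the ABCB4 region among the lower ones. The surroundings thus held both directions, with more lower than higher regions. Of all listed RBBP4 regions 24180 were higher and 10974 lower. Whether ABCB1 differs from its surroundings was not tested.

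ABCB4, which encodes the phosphatidylcholine exporter of bile, starts 26989 bp beyond the low-coordinate end of ABCB1. Its single RBBP4 region, at chromosome 7, 87382496 to 87382825, had 5.02 RPKM after knockdown against 36.4 RPKM in the control. The counts were 2 reads against 10, a 7.25-fold lower density (1.54 to 68.0), with 0.121 as its adjusted p in the authors' deposited table. The region also overlaps CROT, a peroxisomal carnitine acyltransferase gene, and lies 16600 bp inside ABCB4 from its low-coordinate end. Around ABCB4, 5 listed RBBP4 regions within 500 kb were higher and 15 lower, a set that includes those of ABCB1.

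The 3 ABCC members with a region had the opposite direction. ABCC3, an exporter of bile salts and glucuronides on the basolateral membrane, had 22.5 RPKM after knockdown against 2.34 RPKM in the control at chromosome 17, 50639075 to 50639588. The counts were 14 reads against 1, a 9.66-fold higher density (1.47 to 408). Its adjusted p was 0.0117 in the authors' deposited table, the second of 2 member regions below 0.05 there, and 48.3% of listed RBBP4 regions met that criterion in the higher direction. The region lies inside the gene, 4194 bp from the low-coordinate end of its span.
ABCC4, an exporter of cyclic nucleotides and nucleotide analogues, had 24.8 RPKM after knockdown against 5.99 RPKM in the control at chromosome 13, 95301691 to 95302091. This region lies 240 bp upstream of the annotated start, outside the span, and overlaps LOC102724149, a long non-coding RNA gene. It held 12 reads against 2 (4.14-fold higher, 0.921 to 38.1), and its adjusted p in the authors' deposited table was 0.0668.
ABCC5, another exporter of cyclic nucleotides, had 23.4 RPKM after knockdown against 6.78 RPKM in the control at chromosome 3, 184012879 to 184013232, 4652 bp inside the gene from its start. The counts were 10 reads against 2 (3.45-fold higher, 0.735 to 32.4), with 0.121 as its adjusted p in the authors' deposited table. The intervals at ABCC4 and ABCC5 included equal density. With reads scaled to the inferred whole libraries they did not, at 1.38 to 57.0 for ABCC4 and 1.10 to 48.4 for ABCC5. Regions were listed at an unadjusted p below 0.05 in the authors' deposited table, and this scale was fitted to the authors' fold changes. That choice favours intervals without equal density on this scale, so these 2 intervals are not separate support for a change. The scaling to whole libraries also brought every lower RBBP4 density closer to equal. The limits nearest to equal density were at ABCB4, 4.85-fold lower (1.03 to 45.5), and at the third ABCB1 region, 3.39-fold lower (1.07 to 14.2).

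**Figure D2:**
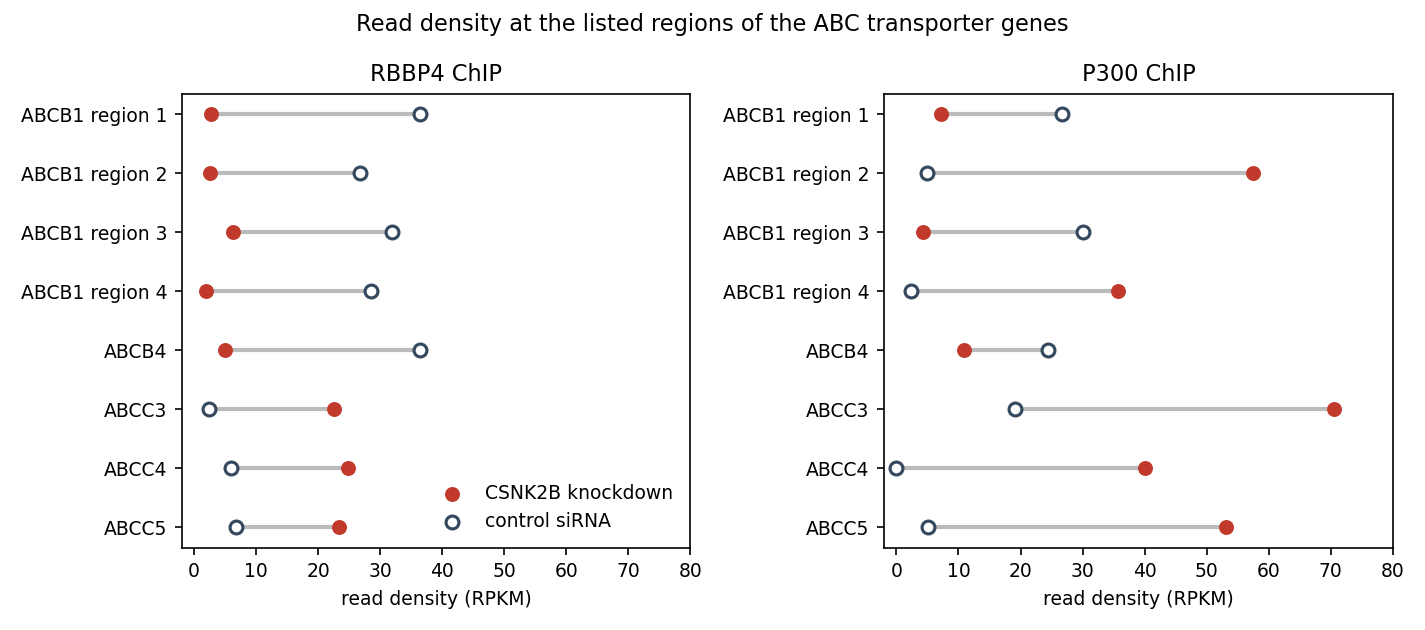
Read density in RPKM at each listed member region, RBBP4 on the left and P300 on the right, with filled points for CSNK2B knockdown and open points for control siRNA, 1 library each. ABCB1 regions are numbered from its low-coordinate end toward the far start. At RBBP4 the knockdown points of ABCB1 and ABCB4 sit between 1.97 and 6.30 RPKM, left of all their control points, while those of ABCC3, ABCC4 and ABCC5 sit right of theirs.

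Most member RBBP4 regions lay away from both gene ends. Only those of ABCB1 near its far start and of ABCC4 came within 3000 bp of such an end, and neither was below 0.05 by the adjusted p of the authors' deposited table. So 0 of 9 members had a region meeting both criteria, against 30.4% of protein-coding genes, and 2 of 9 had any listed region there, against 38.2% of protein-coding genes. The member regions held 10 to 24 reads over both libraries, with a median of 13, where the median of all listed RBBP4 regions was 18.

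P300 occupancy at the members was higher after knockdown in 5 regions and lower in 3. All 8 passed 2-fold by the ratio of RPKM plus 1. Listed P300 regions as a whole were at least 2-fold higher in 34.7% and at least 2-fold lower in 64.3% of cases. The members' median log2 ratio was 2.49, against -1.70 over all listed P300 regions. The same 5 genes as for RBBP4 carried the P300 regions, again with 4 at ABCB1 and 1 each at ABCB4, ABCC3, ABCC4 and ABCC5. Regions in both tables were listed at 17.1% of all protein-coding genes and at 38.6% of those whose span lies in the members' range, against 5 of 9 members. In the authors' deposited table the adjusted p-values of the 8 regions were 0.260 or 0.293, and 0 of 20496 listed P300 regions fell below 0.05.

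The deepest P300 region of a member lay at ABCC3, at chromosome 17, 50634546 to 50635024. It spans the low-coordinate end of the gene and had 70.6 RPKM after knockdown against 19.1 RPKM in the control. The counts were 32 reads against 10, a 3.70-fold higher density (1.77 to 8.43), and 99.3% of listed P300 regions had no more reads. It was the only P300 region of a member that came within 3000 bp of an end, where 5.89% of protein-coding genes had a region at least 2-fold changed. The nearest RBBP4 region, 3203 bp away and outside the ABCC3 window, had 18 reads after knockdown against 6 in the control.
The P300 region of ABCC4 lies inside the gene at chromosome 13, 95248099 to 95248362, 53089 bp from the start. It had 40.02 RPKM after knockdown and was listed at 0 in the control, from 10 reads against 0. With 3 reads standing in for 0 this was 3.85-fold higher. The exact interval had a lower limit of 2.59, or 1.90 with reads scaled to the inferred whole libraries.
At ABCC5 the P300 region at chromosome 3, 183968250 to 183968428, 49456 bp inside the gene, had 53.1 RPKM after knockdown against 5.11 RPKM in the control. This was 9 reads against 1 (10.4-fold higher, 1.44 to 456). The 3 ABCC members therefore had a higher region in each table, at positions at least 4051 bp apart.

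ABCB1 had P300 regions in both directions. Nearest to the far start, at 32790 bp from it, the region at chromosome 7, 87680122 to 87680505 had 35.8 RPKM after knockdown against 2.38 RPKM in the control, or 13 reads against 1 (15.0-fold higher, 2.25 to 638). A second higher region between the starts, at 87632517 to 87632700, had 57.4 RPKM after knockdown against 4.97 RPKM in the control, or 10 reads against 1 (11.5-fold higher, 1.64 to 501).
Between these lay a lower region at 87672492 to 87672735, with 4.33 RPKM after knockdown against 30.0 RPKM in the control, or 1 read against 8. Its 6.93-fold lower density had an interval that included equal density (0.929 to 307). All 3 also lie in RUNDC3B.
The fourth, at 87527577 to 87528022 24560 bp from the low-coordinate end of the span, had 7.11 RPKM after knockdown against 26.7 RPKM in the control, or 3 reads against 13 (3.75-fold lower, 1.03 to 20.5). Of the 4, the 2 higher ones were called as peaks in the knockdown arm and the 2 lower ones in the control arm. ABCB4 had 10.9 RPKM after knockdown against 24.5 RPKM in the control at chromosome 7, 87407166 to 87407651, or 5 reads against 13, a 2.25-fold lower density with an interval of 0.753 to 8.07. With reads scaled to the inferred whole libraries the intervals of these lower densities were 1.02 to 10.96 at ABCB4 and 1.26 to 418 at the ABCB1 region with 1 read against 8, above equal density. As for RBBP4, listing by the authors' unadjusted p below 0.05 favours this on a scale fitted to the authors' fold changes. The intervals on that scale are therefore not separate support for a change. The scaling to whole libraries also brought every higher P300 density of a member closer to equal. The limit nearest to equal density was at ABCC5, 7.65-fold higher (1.06 to 335).

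**Figure D3:**
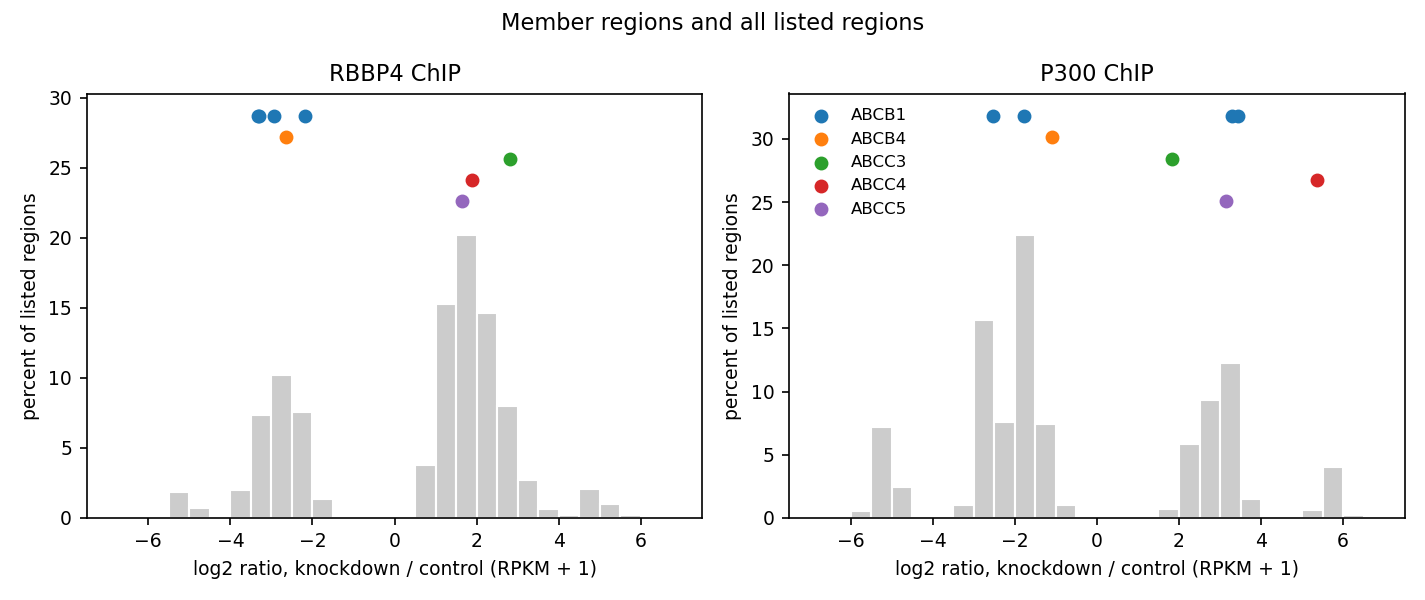
Distribution of the log2 ratio of RPKM plus 1, knockdown over control, over all listed regions (grey bars, percent per bin) with the member regions as points above, placed at arbitrary heights by gene. Between -0.5 and 0.5 lie 22 of 35154 RBBP4 and 0 of 20496 P300 regions, since the lists hold regions below the authors' p of 0.05, and the members fall within the bulk on both sides, with ABCC4 at 5.36 in the P300 panel beside the regions without control reads.

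Set side by side, ABCC3, ABCC4 and ABCC5 were higher in both tables, ABCB4 was lower in both, and ABCB1 was lower for RBBP4 and divided for P300. Apart from ABCB1, each direction rests on 1 region per table. Intervals included equal density for RBBP4 at ABCC4 (0.921 to 38.1) and ABCC5 (0.735 to 32.4), and for P300 at ABCB4 (0.753 to 8.07). With the span extended by 10000 bp the mean RBBP4 log2 ratio of ABCC4 was -0.81. The 2 antibodies had separate libraries in each arm. Over all protein-coding genes, 1784 had regions of a single direction in each table, and 40.8% of these had the same direction in both, 27.2% higher and 13.6% lower. No member RBBP4 region overlapped a listed P300 region. The nearest pair of member regions, both at ABCC3, lay 4051 bp apart, and at the other 4 genes the gap between a member region and the nearest listed region of the other antibody was at least 15089 bp.

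Neither table listed a region at ABCC1, ABCC2, ABCG1 or ABCG2. These encode the broad organic anion exporter of most tissues, the apical exporter of bilirubin glucuronide, a cholesterol exporter and the breast cancer resistance protein. Of all protein-coding genes 51.6% had a listed RBBP4 region and 23.6% a listed P300 region, and 41.9% had neither. The members are long genes, with a median span of 110132 bp against 24115 bp overall. Among the 4738 genes whose span lies in the members' range, 72.1% had a listed RBBP4 region, 49.9% a P300 region and 16.6% neither, where the members had 5, 5 and 4 of 9.
ABCC1 lay farthest from any listed region, with the nearest RBBP4 region 455325 bp from its span and the nearest P300 region 1464310 bp away. It is not known whether the tables used here are complete around ABCC1. For ABCG1 the distances were 139752 bp and 129236 bp, and for ABCG2 they were 52504 bp and 88783 bp. ABCC2 was nearest, with an RBBP4 region 50038 bp away at 34 reads after knockdown against 11 in the control, and a P300 region 14004 bp away at 11 reads against 2. ABCG2 has 5 annotated starts in RefSeq, all within this span. Member windows held 0.609 regions per 100 kb in each table, against 1.61 for RBBP4 and 0.674 for P300 over all gene windows. Over all genes a region in overlapping windows counts more than once. These densities were not compared among genes of like length.

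The same count was made for 7 lists of genes of drug transport and response, which were chosen with earlier results of these data known. Their median spans ran from 18118 bp for drug oxidation and conjugation to 64848 bp for other ABC transporters. The median over all protein-coding genes was 24115 bp, so shares of all genes are not matched for length. Of 39 other ABC transporter genes, 22 had a higher RBBP4 region and 13 a lower one, against 46.5% and 14.8% of all protein-coding genes. Their median span was 64848 bp, and among genes with spans in the range of the 9 members, 57373 to 281617 bp, the shares were 62.3% and 31.0%. At a gene end 13 of the 39 had a region below 0.05 by the adjusted p of the authors' deposited table, all higher, where 30.4% of protein-coding genes had one in either direction. ABCC9, a regulatory subunit of potassium channels, had 126 reads after knockdown against 14 in the control (6.21-fold higher, 3.57 to 11.7), inside the gene. ABCB8, a mitochondrial transporter, had 58 against 6 at a gene end (6.67-fold, 2.88 to 18.9).
For P300, 10 of the 39 had a higher region and 11 a lower one, against 11.5% and 17.7% of all genes and 23.7% and 37.9% of those in the members' span range. CFTR, the chloride channel, had 8 reads after knockdown against 22 in the control (2.38-fold lower, 1.02 to 6.19). ABCA10 had 7 against 19 (2.35-fold lower, 0.946 to 6.62). Higher were ABCC9, with 16 against 2 (9.24-fold, 2.17 to 82.8), and ABCA9, with 19 against 5 (4.39-fold, 1.58 to 15.0). The median P300 log2 ratio over the 37 regions of this list was 0.55, against -1.70 over all listed P300 regions.
A list of 39 regulators of ABC transporter transcription held mostly transcription factors, with KEAP1, the inhibitor of NRF2, and CTNNB1, a coactivator, among them. Of these genes 28 had a higher RBBP4 region and 7 a lower one, against 46.5% and 14.8% of all protein-coding genes. Those shares, and 11.5% and 17.7% for P300, stand beside the counts of the lists below as well. JUN, a subunit of AP-1, had 92 reads after knockdown against 4 in the control at a gene end (15.9-fold higher, 5.99 to 59.5), FOS, its partner, had 100 against 10 (6.90-fold, 3.60 to 14.8) and KEAP1 had 84 against 14 (4.14-fold, 2.33 to 7.89). For P300, 1 of these had a higher region and 10 a lower one, with NFYA, a subunit of the CCAAT-binding factor, at 2 reads after knockdown against 15 in the control (6.50-fold lower, 1.51 to 58.5).
Of 19 genes of drug targets and response, 14 had a higher RBBP4 region and 4 a lower one, with TDP1, which repairs topoisomerase I adducts, at 122 reads after knockdown against 23 in the control (3.66-fold higher, 2.33 to 5.99). Their P300 counts were 2 and 3, with ERCC1, an excision repair gene, at 21 reads after knockdown against 4 in the control (6.06-fold higher, 2.05 to 24.3). Drug uptake carriers had 10 of 23 with a higher and 5 with a lower RBBP4 region, and 1 and 4 for P300. Drug oxidation and conjugation genes had 4 of 33 and 7 of 33 for RBBP4, and 2 and 2 for P300. Their median RBBP4 log2 ratio was -2.66 over 29 regions, against 1.49 over all listed RBBP4 regions. DPYD had 93 RBBP4 reads after knockdown against 11 in the control (5.83-fold higher), and ALDH1A1 had 2 against 11 (7.97-fold lower). Naming genes by most reads favours higher RBBP4 regions, which held a median of 24 reads against 13 at lower ones. Other efflux and metal carriers had 3 and 1 of 8 for RBBP4 and 2 and 2 for P300. Genes whose products anchor or phosphorylate these transporters had 5 of 11 with a higher RBBP4 region and 0 with a lower one, and 1 and 0 for P300. CSNK2B is among these 11 and had no listed region. With or without such a region, these data do not measure the knockdown itself.

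**Figure D4:**
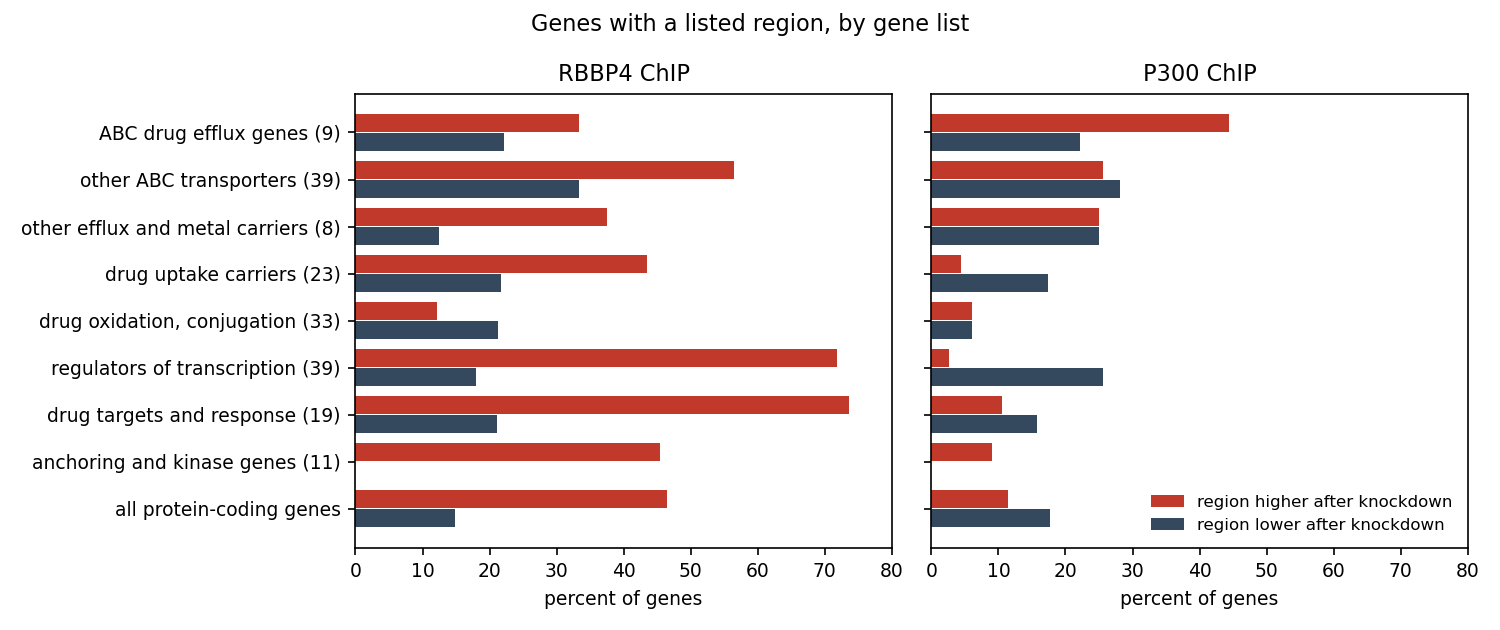
Percent of genes with at least 1 listed region higher (red) or lower (dark) after CSNK2B knockdown, for RBBP4 on the left and P300 on the right, with the number of genes of each list in parentheses. The lists differ in gene length, and the bars for all 20037 protein-coding genes are 46.5% and 14.8% for RBBP4 and 11.5% and 17.7% for P300.

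The gene most like ABCB1 in the number of regions per 100 kb of each antibody and direction was FAM168A, at a Euclidean distance of 0.141 over these 4 values, among 1576 genes with at least 5 listed regions. It had 4 lower and 0 higher RBBP4 regions and 2 higher and 2 lower P300 regions, the same counts as ABCB1, in a window of 204 kb against 216 kb. PKD1L1 and ITSN2 followed, at distances of 0.332 and 0.431.

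Immunoprecipitated DNA does not give expression, so the labelled cell type was set against the marker genes only by their regions. Of 16 neuroendocrine genes, 5 had any listed RBBP4 region. All 5 had a higher one and 2 also a lower one, with SYT1 at 13 higher regions and CHGA at 0. Higher and lower RBBP4 regions were listed at 7 and 0 of 10 fibroblast genes, 4 and 3 of 10 endothelial genes, 3 and 3 of 12 hepatocyte genes and 0 and 0 of 10 T cell genes. For P300 the counts were 2 and 5 for neuroendocrine, 1 and 2 for fibroblast, 1 and 2 for endothelial, 2 and 1 for hepatocyte and 2 and 1 for T cell genes. Over all protein-coding genes the higher and lower shares were 46.5% and 14.8% for RBBP4, and 11.5% and 17.7% for P300. The marker lists differ in gene length, with median spans from 11903 bp for neuroendocrine to 59280.5 bp for endothelial genes. The part of these marker genes in the transporter results was not tested.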

How the data were processed

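Bound DNA of NCI-H69 was sequenced as paired 150 bp reads. Per antibody, the authors deposited a list of regions and their RPKM in the 2 immunoprecipitated libraries. The log2 fold change, the mean log2 CPM, the p-value and its adjusted value per region are the authors', per the file headers. The submitters' processing notes name Bowtie2 2.4.5, MACS2 2.2.7.1, DiffBind 3.4.11, Trim Galore 0.6.7, ChIPseeker 1.28.3, FastQC and the build GRCh38; the role of each is not given in the sources used here. Columns were assigned to arms by name.

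Multiplying RPKM by width returned whole reads, to within 0.01 read, at 98.3% of RBBP4 and 99.4% of P300 regions, including all 16 member regions. The other regions entered no read count. The arithmetic of read recovery was tested on simulated data, which is no test of the totals inferred from the deposited values. Intervals are exact Clopper-Pearson binomial intervals (SciPy 1.17.1) and cover counting error only. Reads without molecular identifiers are not independent molecules. Gene spans and promoter sequences came from RefSeq GRCh38.p14, the build of the tables. Strand and starts were used where the promoter table gave them, for 5 members. The members, the 7 gene lists and the 5 marker lists were chosen with earlier results of these data known. All 9 members were named with every region. From other lists, examples came from the 4 genes per antibody with most reads in 1 region. Alternatives were the pseudocount, scaling, read minimum, gene window, overlap, adjusted p, fold and distance to an end.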

Additional observations from a re-analysis of the deposited data

How the results depend on the processing

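The shallow counts limit the members most. With at least 20 reads over both libraries, 0 higher and 1 lower RBBP4 region (ABCB1) and 1 higher and 0 lower P300 regions (ABCC3) were left, each in 1 member, with a P300 median log2 ratio of 1.83. Below 0.05 by the adjusted p of the authors' deposited table, 1 higher and 1 lower RBBP4 region in 2 members were left, with a median log2 ratio of -0.057, and 0 higher and 0 lower P300 regions in 0 members. At 4-fold by the ratio of RPKM plus 1, 1 RBBP4 region was higher (ABCC3), with ABCC4 short of it at a log2 ratio of 1.88, and 1 P300 region was lower. Counting any listed region at a gene end, an alternative chosen after seeing the data, gave 2 members for RBBP4. Counting annotated starts only gave 0 members for P300, since the promoter table gave no start for ABCC3. Extending the span by 10000 bp turned the mean RBBP4 log2 ratio of ABCC4 to -0.81, against 1.88, by adding a region with 1 read after knockdown against 11 in the control. It also brought that of ABCC3 to 0.32, against 2.82, by adding a region with 2 reads after knockdown against 12 in the control and another with 18 against 6. The P300 log2 ratio of ABCC4 was 3.17 with a pseudocount of 5. The remaining values kept their direction, and stayed within 1.5 times for counts or within the counting interval of the summed reads, centred on the value given. No paired analysis was possible because each antibody and arm had 1 library, and no library could be left out.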
